A study of Saccharomyces cerevisiae with 15 samples.

Results

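The DMSO-treated control cells of this yeast series are described here by the absolute level of each transcript. They are the 3 samples labelled pL220_DMSO, of 15 samples in all, and 6692 genes were counted in each. The cells were of the budding yeast strain L40, a haploid of mating type a used for two-hybrid work, and carried the empty vector pL220. Its genotype is given with the mutations his∆200, trp1-901, leu2-3,112 and ade2, with lexA-driven reporters, HIS3 at LYS2 and lacZ at URA3, and with the entry Gal4. All samples of the series share this background. The DMSO samples were grown in SD-L medium with 0.4% DMSO for 1 h, after successive overnight growths in SD-L medium. The other groups, of 3 samples each, were the same control strain with 200 µM Curcumin or 400 µM CPTH2, both inhibitors of histone acetyltransferases dissolved in the same amount of DMSO, and strains that stably express an intrabody, either scFv-58F, which binds histone H3 acetylated at lysine 9, or scFv-645, which binds the unrelated protein neuroligin-2, grown in DMSO medium. An intrabody is an antibody fragment made inside the cell. The study's methods call the 3 samples of each condition biological replicates, without saying at which step they were separated.

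A transcriptome of growing yeast is dominated by a small set of housekeeping messages. Cells that grow on glucose send much of their transcription to the genes for ribosomal proteins, which build the protein-making machine, and to the enzymes that turn glucose into ethanol. Genes for sporulation, for the other mating type and for families near chromosome ends are kept low or off. Levels are given as RPKM, the reads on a gene scaled to its coding length and to the mapped reads of the sample, which can be compared between genes. CPM are counts scaled only to the total of the sample. Shares are percentages of all reads counted on genes, in which a long gene weighs more than a short gene at the same RPKM.

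The 3 DMSO samples held 10369353, 18878167 and 12286799 reads on genes, within the range of 9062694 to 18878167 over all 15 samples. In DMSO replicate 1, 91.4% of the mapped reads lay on genes, against 96.8% and 96.4% in replicates 2 and 3, so that its RPKM values run slightly lower. Replicate 1 stood apart in other ways as well. Genes of the mitochondrial genome took 1032 counts in it, against 101 and 122 in replicates 2 and 3, and small genes inside the ribosomal DNA were several times higher. The mean share of mitochondrial genes was 0.00383% with replicate 1 and 0.000764% without it. The libraries were made with a stranded kit, but genes on opposite strands of the same stretch had similar values, such as GPM1 and YKL153W with means of 10389 and 11164 RPKM. The counting was therefore taken to ignore strand. This is inferred from the values and not stated in the sources used here. If it holds, the 1321 genes that overlap another gene share reads with it. Of the 6692 identifiers, 6008 are in the reference annotation of the R64 (sacCer3) genome and 6000 of these have the same coordinates there. Among the remaining 684, 570 (83.3%) overlap another gene, against 12.5% of the reference genes.

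Sequences that mark high and low genes are shown first. Yeast genes of high expression are known to prefer certain codons for each amino acid, those read by the most abundant tRNAs. The first 120 coding bases of 4 genes are printed with such preferred codons in capitals. They are TDH3, the main glyceraldehyde-3-phosphate dehydrogenase of glycolysis, RPS31, the gene of highest RPKM, STE2, the receptor for alpha-factor, and HXT14, the hexose transporter gene of lowest RPKM. The bases come from the R64 genome, read along the coding strand.
TDH3, chrVII:883691-883810, minus strand: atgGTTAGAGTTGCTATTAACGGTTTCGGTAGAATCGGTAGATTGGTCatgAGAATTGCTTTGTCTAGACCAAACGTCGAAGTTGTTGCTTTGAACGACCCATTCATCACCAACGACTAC
RPS31, chrXII:498947-499066, plus strand: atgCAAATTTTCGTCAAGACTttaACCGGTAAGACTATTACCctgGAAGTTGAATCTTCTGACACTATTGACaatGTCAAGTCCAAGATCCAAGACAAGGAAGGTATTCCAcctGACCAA
STE2, chrVI:82580-82699, plus strand: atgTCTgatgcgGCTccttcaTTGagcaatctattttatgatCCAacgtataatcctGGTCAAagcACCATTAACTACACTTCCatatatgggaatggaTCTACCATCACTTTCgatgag
HXT14, chrXIV:40210-40329, minus strand: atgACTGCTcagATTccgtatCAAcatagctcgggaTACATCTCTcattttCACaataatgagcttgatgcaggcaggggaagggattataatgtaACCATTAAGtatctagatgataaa
All 38 codons that could be scored in this stretch of TDH3 were preferred codons, and 35 of 39 in RPS31. In STE2 it was 17 of 39 and in HXT14 11 of 39. The mean RPKM of these genes was 9621 for TDH3, 27890 for RPS31, 65.2 for STE2 and 0.622 for HXT14.

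Over the 5952 genes with both values, the share of preferred codons in the whole coding sequence and the mean DMSO RPKM had a Spearman correlation of 0.41 across genes, which are not independent replicates and share the same 3 libraries. The relation lay mostly at the top. The median share of preferred codons was 44.1% in the lowest of 10 equal groups of genes by RPKM, 45.3% in the fifth, 50.6% in the ninth and 66.4% in the highest, with about 596 genes a group. Ribosomal protein genes had a median of 89.0% and glycolytic genes of 91.4%, while meiosis genes had 44.1%. Coding length ran the other way, with a Spearman correlation of -0.44 and a median of 554 bases in the highest group, against 1385 bases in the lowest. GC content had a correlation of 0.26 with RPKM.

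Levels spanned a wide range. The median gene had a mean of 34.2 RPKM, and the values at the lowest and highest 5% of genes were 3.40 and 610 RPKM. At least 1 RPKM was found in all 3 samples for 6512 genes (97.3%), at least 10 for 5427, at least 100 for 1473, at least 1000 for 232 and at least 10000 for 11. The counts were concentrated in few genes. The 10 most counted genes held 10.2%, 9.97% and 10.2% of the counts of replicates 1, 2 and 3, the top 100 held 35.9%, 37.0% and 36.7%, and 50% of the counts lay in 207, 195 and 200 genes. In the 20 genes of highest RPKM, 15 were the same in all 3 samples.

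**Figure D1:**
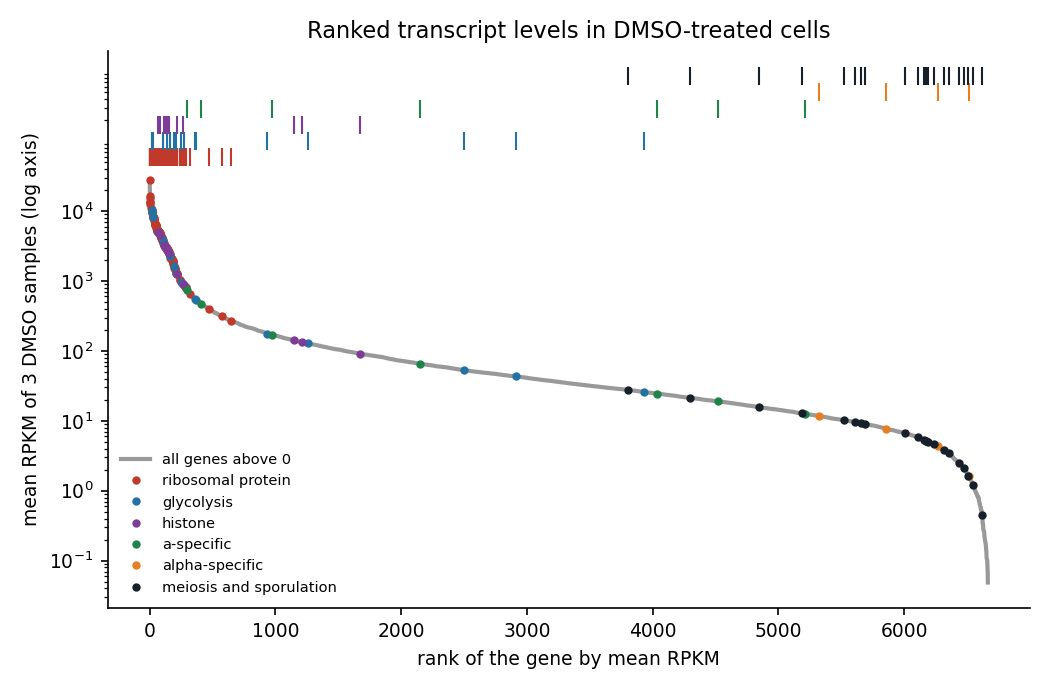
Mean RPKM of the 3 DMSO samples (log axis) for every gene above 0, ranked from the highest to the lowest. Coloured points on the curve, and ticks of the same colour above it, mark the members of 6 lists: ribosomal protein genes lie at the top, from 27890 to 270 RPKM, while meiosis genes lie between 27.7 and 0.444 RPKM.

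RPS31, on chromosome XII, had the highest level, with 24882, 29291 and 29496 RPKM in replicates 1, 2 and 3. It encodes a fusion of ubiquitin and a protein of the small ribosomal subunit. CCW12, for a small mannoprotein of the cell wall, followed with 16404, 18943 and 20596 RPKM. Both were lowest in replicate 1. RPL41B, RPS30A, RPS20, RPP2B and RPL39, all for ribosomal proteins, came next among annotated genes, with means of 16281, 15324, 13627, 13264 and 12717 RPKM. In all, 10 of the 20 genes of highest RPKM and 66 of the top 100 were ribosomal protein genes, a class that makes up 2.05% of all genes.

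The remaining genes of the top 20 had other roles. ADH1, the alcohol dehydrogenase that makes ethanol, had 10659, 10764 and 11323 RPKM, and GPM1, the phosphoglycerate mutase of glycolysis, had 9491, 10641 and 11035 RPKM. TMA10, a small ribosome-associated protein, averaged 9873 ± 1524 RPKM (SD, n = 3). The metallothionein genes CUP1-1 and CUP1-2, which protect from copper, are a pair of near-identical copies and cannot be told apart by reads. CUP1-1 had 7328, 15841 and 9727 RPKM, highest in replicate 2. Its coefficient of variation (CV, the SD over the mean) of 37.8%, on CPM of the reads on genes, was far above the median of 5.36% over all genes with at least 10 counts in each sample.

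Identifiers outside the reference annotation also reached the top. YHR052W-A and YHR054W-A had means of 12227 and 12223 RPKM, YKL153W 11164, YLR076C 9582 and YPL250W-A 8824 RPKM. Each lies opposite a highly expressed gene, overlapping CUP1-1 and CUP1-2 by 87.2% of its length, GPM1 by 91.8%, RPL10 by 96.5% and RPL36B by 100%. The partners had means of 10965 RPKM for CUP1-1, 10962 for CUP1-2, 10389 for GPM1, 8306 for RPL10 and 8459 for RPL36B. If reads were counted without strand, as these values led to assume, they cannot be assigned to either gene of a pair.

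By counts, the order changed, since long genes take more reads. LEU2, an enzyme of leucine synthesis and the usual marker for growth in SD-L medium, was the most counted gene, with 158679, 255024 and 160291 counts, or 1.53%, 1.35% and 1.30% of the sample. Its level was 12780, 11948 and 11479 RPKM. The strain carries the leu2-3,112 mutation, and the counts do not show from which copy of the gene the reads came. The other 9 genes were RPS31, ADH1, TDH3, the near-identical elongation factor genes TEF1 and TEF2, FBA1 for the aldolase of glycolysis, GPM1, CCW12 and RPL15A.

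The ribosomal proteins are the structural parts of the ribosome, and most are encoded by a pair of gene copies named A and B. The 137 ribosomal protein genes took 26.8%, 28.3% and 28.0% of the counts in replicates 1, 2 and 3, lowest in replicate 1. As a share of summed RPKM, which corrects for their short length, they made up 40.02% ± 0.921 (SD, n = 3). Of the 137 genes, 126 had at least 1000 RPKM in every sample. The lowest was RPL22B, with 269, 288 and 254 RPKM, 103-fold below RPS31 by the means.

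Among the 57 pairs of copies, the median difference between copies was 2.03-fold. The A copy was higher in 34 pairs and the B copy in 23, with the same sign in all 3 samples for 55 pairs. In 29 pairs the copies differed more than 2-fold, in 8 more than 5-fold and in 3 more than 10-fold. RPL15A had 8773, 10321 and 10152 RPKM, against 366, 402 and 408 RPKM for RPL15B. RPL22A averaged 6345 RPKM, against 270 RPKM for RPL22B, and RPS9B averaged 4744 RPKM, against 311 RPKM for RPS9A. In all 3 pairs the higher copy was the same in every sample. For 5 pairs, more than 50% of the 51-base stretches of at least 1 copy occur elsewhere in the genome. Some genes of wholly repeated sequence had the same counts as their copy, such as 7, 13 and 10 for both PAU1 and PAU14. A read may thus have been counted at every copy it matches. The levels of copies in the 5 pairs are therefore uncertain and may include the same reads. RPL41A and RPL41B, with means of 4332 and 16281 RPKM, are among these 5 pairs. Outside them, RPL15A and RPL15B each have 11.7% repeated sequence, and RPS9A and RPS9B have 2.49% and 2.73%. The lower copies RPL15B and RPS9A may thus hold reads of the higher copy, so that their fold differences are uncertain. RPL22A and RPL22B have no repeated sequence.

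**Figure D2:**
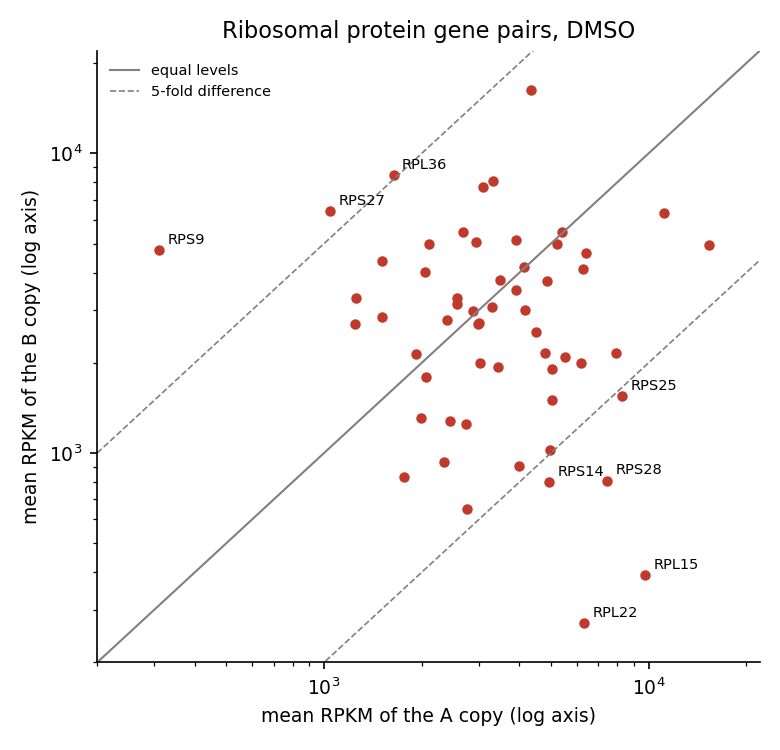
Mean RPKM of the A copy (x, log axis) and the B copy (y, log axis) of 57 pairs of ribosomal protein genes in the 3 DMSO samples. The solid line marks equal levels and the dashed lines a 5-fold difference, and the 8 named pairs lie outside the dashed lines.

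Summed over both copies, the levels were more even than those of single copies. The SD of log2 RPKM was 0.63 for the 57 sums, against 1.05 for the single copies of these pairs. A sum tends to vary less than its parts even where the copies are unrelated. Whether copies balance each other was not tested. The sums had a median of 6938 RPKM, and 18 RPL and RPS genes without a second copy had a median of 7148 RPKM. The 5 genes of the ribosomal stalk, RPP0, RPP1A, RPP1B, RPP2A and RPP2B, were in neither set and had means of 4214, 10341, 3882, 4945 and 13264 RPKM. The sums ran from 2596 RPKM to 20613 RPKM, the highest being that of RPL41. For RPL41 and the other pairs of mostly repeated sequence, a sum may hold the same reads at both copies.

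Other complexes differed in how even their subunits were. The 8 genes of the CCT chaperonin, a barrel that folds actin and tubulin, ran from 50.9 RPKM for CCT5 to 101 RPKM for CCT3, with an SD of log2 RPKM of 0.30. The 32 proteasome genes, for the protease that degrades ubiquitinated proteins, ran from 58.5 RPKM for RPN1 to 383 RPKM for RPN13, with an SD of 0.63. RNA polymerase II was the least even, with an SD of 1.43 over 12 genes, from 19.8 RPKM for RPO21, its largest subunit, to 478 RPKM for RPB4. The coding lengths at the extremes were 2982 bases for RPN1, 471 for RPN13, 5202 for RPO21 and 666 for RPB4. The SD over all reference genes above 0 was 2.26.

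Proteins that assist translation were also abundant. The 20 translation factor genes took 3.24%, 3.06% and 3.001% of the counts, of which the copies of elongation factor 1A, TEF1 and TEF2, took the most. TEF1 and TEF2 are 92.3% repeated sequence, so that the same reads may be counted for both and raise this share. TEF1 had 6873, 6834 and 6797 RPKM. HEF3, a copy of the elongation factor YEF3, was at the low end with 4.87, 4.96 and 4.85 RPKM, while YEF3 had 525, 525 and 461 RPKM. ANB1, an alternative form of the translation factor encoded by HYP2 and known to be used without oxygen, had 7.44, 7.36 and 10.3 RPKM, against 2983, 2975 and 3112 RPKM for HYP2.

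Glycolysis converts glucose to pyruvate. Its 19 genes took 5.67%, 5.33% and 5.55% of the counts, lowest in replicate 2. From the top of the pathway, the hexokinase genes HXK1, HXK2 and GLK1 had means of 1283, 547 and 887 RPKM, and HXK1 was above HXK2 in every sample. The phosphofructokinase genes PFK1 and PFK2 were far lower, with 181, 177 and 171 RPKM for PFK1 and 133, 128 and 123.5 RPKM for PFK2. The highest levels of the list were those of GPM1, TDH3 and FBA1, which act after phosphofructokinase. Not all steps after it were as high, with a mean of 2376 RPKM for PGK1. TDH3 had 9367, 9589 and 9908 RPKM, and FBA1 had 8291, 7967 and 8462 RPKM. The pyruvate kinase gene CDC19 averaged 3592 ± 78.2 RPKM (SD, n = 3), against 53.2 ± 1.499 RPKM for its copy PYK2, and GPM2 and GPM3, copies of GPM1, had means of 43.1 and 25.9 RPKM.

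Within the glyceraldehyde-3-phosphate dehydrogenase family, TDH3 was higher than TDH2 at 2788 ± 73.4 RPKM and TDH1 at 972 ± 51.5 RPKM (SD, n = 3), with no overlap between samples. The enolase genes were closer, with 2368, 2248 and 2233 RPKM for ENO2 and 1703, 1566 and 1665 RPKM for ENO1. ENO2 was above ENO1 in every sample. TDH1, TDH2 and TDH3 have 15.3%, 30.6% and 23.8% repeated sequence, and ENO1 and ENO2 have 22.9% each. The levels within both families may thus include shared reads.

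The 8 genes of ethanol fermentation took 1.87%, 1.799% and 1.88% of the counts. Besides ADH1, the pyruvate decarboxylase PDC1 had 3000, 3121 and 3183 RPKM, while its copies PDC5 and PDC6 had means of 15.3 and 1.87 RPKM. ADH2, the enzyme that consumes ethanol and is repressed by glucose, had 333, 317 and 309 RPKM. ADH1 and ADH2 each have 13.9% repeated sequence, and PDC1 and PDC5 each have 0.914%. The low levels of ADH2 and PDC5 may thus include reads of ADH1 and PDC1. Among the 19 hexose transporter genes, HXT2, which imports glucose with high affinity, was the highest with 1476, 1556 and 1434 RPKM. It was above HXT1 and HXT3, carriers of low affinity, which had means of 99.3 and 251 RPKM. HXT8, HXT9, HXT10, HXT11 and HXT13 to HXT17 were all below 8 RPKM.

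The GAL genes, which take up and convert galactose and are known to be off on glucose, were high in this strain. GAL7 had 2355, 2380 and 2358 RPKM, GAL1 had 851, 825 and 883 RPKM, GAL10 had 619, 611 and 616 RPKM and the galactose permease GAL2 had 1173, 1062 and 1127 RPKM. Their activator GAL4 had 12.8, 14.8 and 15.5 RPKM, and GAL80, the inhibitor of Gal4, had 0 counts in all 3 DMSO samples and in all 12 other samples. SUR7, for a protein of the plasma membrane, is the neighbour of GAL80 and was also at 0 in all 15 samples. On either side of both genes, which together span positions 170402 to 172901 of chromosome XIII, YML053C had 440, 732 and 436 counts and AIM32 had 100, 239 and 154 counts. These neighbours were chosen after the zeros were seen. Among other genes known to be repressed by glucose, the gluconeogenic PCK1 had 124, 110 and 163 RPKM, the lactate permease JEN1 209, 175 and 249 RPKM and the invertase SUC2 78.9, 76.7 and 85.0 RPKM.

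Marker genes of the strain could be set against its genotype. TRP1, mutated in L40, had 0 counts in all 15 samples, as did YDR008C, which overlaps it. HIS3, which the strain holds as a lexA reporter, had 779, 871 and 905 RPKM. LYS2 had 280, 297 and 287 RPKM and URA3 357, 382 and 365 RPKM, the loci that hold the reporters. ADE2, of adenine synthesis, had 22.0, 20.5 and 23.9 RPKM, and the 8 other purine synthesis genes counted had a median of 71.2 RPKM. The 9 lysine synthesis genes took 0.647%, 0.621% and 0.593% of the counts, from 48.7 RPKM for LYS5 to 1176 RPKM for LYS12, the homoisocitrate dehydrogenase.

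The histone genes package DNA. The 11 of them took 0.926%, 0.939% and 0.969% of the counts. Of the core histone copies, HHT2 for H3 had 4623, 5126 and 5266 RPKM and HHT1 2624, 3096 and 3326 RPKM, HHF2 for H4 averaged 4474 ± 80.7 RPKM and HHF1 2782 ± 64.1 RPKM (SD, n = 3). HTA1 and HTB1, for H2A and H2B, averaged 2540 and 3304 RPKM, each above its second copy HTA2 at 1251 and HTB2 at 908 RPKM. The variants were below all core histone genes, with 142 RPKM for the H2A variant HTZ1, 134 RPKM for the linker histone HHO1 and 91.3 RPKM for the centromeric H3 variant CSE4.

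Mating type is set by the MAT locus. Cells of type a make a-factor and the receptor for alpha-factor, and cells of type alpha make the reverse set. In the DMSO samples, the a-factor genes MFA2 and MFA1 had 809, 750 and 702 RPKM and 429, 476 and 521 RPKM. Of the other a-specific genes, the agglutinin subunit AGA2 had 170, 172 and 171 RPKM, the receptor STE2 70.1, 63.3 and 62.1 RPKM, ASG7 26.0, 19.9 and 27.6 RPKM, the alpha-factor protease BAR1 19.1, 19.9 and 18.0 RPKM and the a-factor exporter STE6 14.6, 11.6 and 11.5 RPKM. MFA2, MFA1, AGA2 and STE2 were above the median gene in every sample, and ASG7, BAR1 and STE6 were below it.

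The alpha-specific genes were lower. The alpha-factor genes MF(ALPHA)1 and MF(ALPHA)2 had 1.24, 2.06 and 1.57 RPKM and 3.64, 5.37 and 3.89 RPKM, the receptor for a-factor STE3 7.55, 7.48 and 8.21 RPKM and the agglutinin SAG1 11.1, 12.4 and 11.7 RPKM. The 7 a-specific genes took 0.0421%, 0.0372% and 0.0373% of the counts (Wilson 95% interval for replicate 1, 0.0408% to 0.0433%). The 4 alpha-specific genes took 0.00375%, 0.00389% and 0.00380% (0.00340% to 0.00414% for replicate 1). SAG1 and STE6 overlapped in level, at 11.7 and 12.6 RPKM by their means, so that both sets met at this point.

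**Figure D3:**
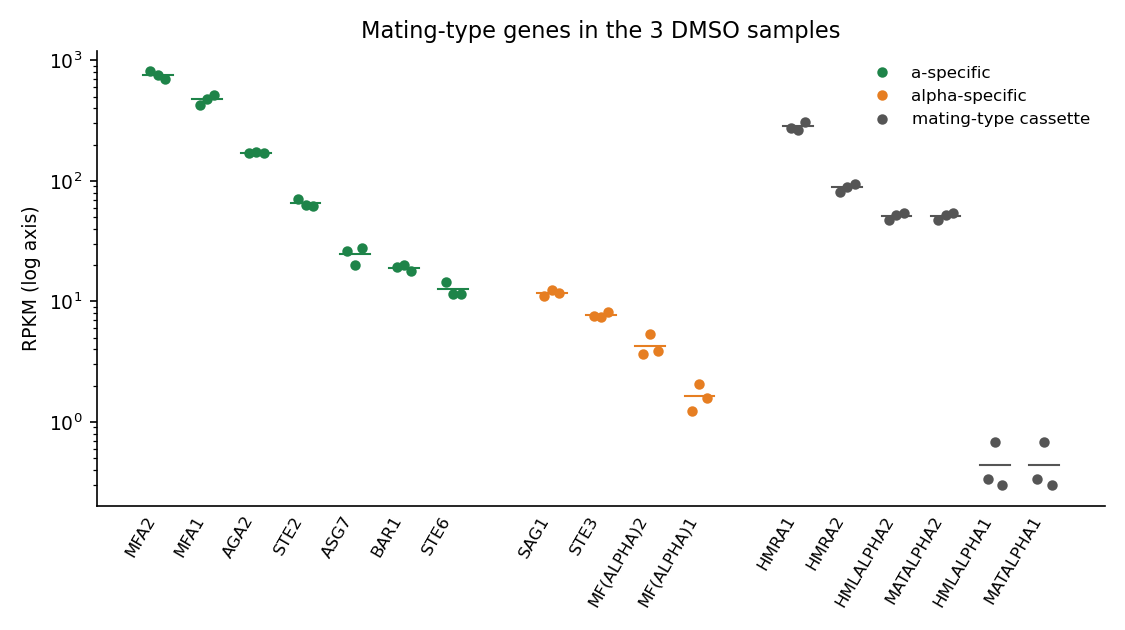
RPKM (log axis) of the a-specific, alpha-specific and mating-type cassette genes in the 3 DMSO samples, with replicates 1 to 3 from left to right as points and the mean as a line. The a-specific genes run from 754 to 12.6 RPKM by the mean, and the alpha-specific genes from 11.7 to 1.62 RPKM.

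The mating-type cassettes hold copies of the same sequences at MAT and at the silent loci HML and HMR. Reads are shared between the repeated genes among them. HMRA1, the a1 gene, had 276, 264 and 310 RPKM and no repeated sequence. The genes counted include no a1 gene at MAT, so that a1 reads from MAT of this strain would be counted at HMRA1. MATALPHA1 and HMLALPHA1, the activator of alpha-specific genes, had 2, 7 and 2 counts each. MATALPHA2, HMLALPHA2 and HMRA2 had 341, 643 and 440, again 341, 643 and 440, and 333, 628 and 430 counts. These 3 genes hold shared sequence, so that their source locus is not known. In the pathway shared by both haploid types, the G-protein subunit genes GPA1, STE4 and STE18 had means of 59.4, 88.2 and 211 RPKM, and the genes known to be induced by pheromone, FUS1, FUS2 and AGA1, had means of 6.41, 3.65 and 8.81 RPKM.

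Each of the 7 a-specific genes held the letters TGAAACA, the core of the element bound by the pheromone-responsive factor Ste12, on either strand within 500 bases upstream of the coding start. Of all 5987 windows of this length, 12.04% held it. The window around a match is printed for the 3 a-specific genes of highest RPKM, along the coding strand of each gene, with the match in capitals (TGTTTCA is the same element on the other strand).
MFA2, chrXIV:352193-352252, plus strand: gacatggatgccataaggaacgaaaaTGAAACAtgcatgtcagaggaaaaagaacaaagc
MFA1, chrIV:1384838-1384897, plus strand: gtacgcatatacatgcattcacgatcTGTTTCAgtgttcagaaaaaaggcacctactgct
AGA2, chrVII:436999-437058, minus strand: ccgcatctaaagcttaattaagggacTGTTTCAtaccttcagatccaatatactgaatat
The matches start 195, 312 and 199 bases before the start codons of MFA2, MFA1 and AGA2. For ribosomal protein genes a form of the Rap1 site was searched in the same way. It was found in 29 of 137 windows (21.2%), against 2.22% of all windows. In meiosis genes AGCCGCC, the core of the site bound by the repressor Ume6, was found in 8 of 22 windows (36.4%), against 4.14%. CTTCC, the Gcr1 letters, was found in 16 of 19 glycolytic windows (84.2%), against 66.1%, and TATAAA in 84.2% of glycolytic and 47.4% of ribosomal protein windows, against 60.5%. No searched motif is contained in another, and a match is not a measured site.

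Genes of meiosis and sporulation, which are silenced in growing haploids, were low in every sample. The 22 genes took 0.0245%, 0.0248% and 0.0250% of the counts. IME1, the master activator of meiosis, was the highest with 24.1, 30.9 and 28.1 RPKM, followed by NDT80 with 19.3, 21.3 and 23.3 RPKM. SPO19, for a protein of the prospore membrane, was the lowest with 4, 6 and 3 counts. Gene families found near the chromosome ends differed. The 24 PAU genes, of the seripauperin family, ran from 0.207 RPKM for PAU19 to 11.7 RPKM for PAU23, and 18 of them consist mostly of repeated sequence. The 12 genes named COS had a median of 53.1 RPKM, above the 34.2 RPKM of all genes. They ran from 2.92 RPKM for COS12 to 209 RPKM for COS6. One of them, COS111, has 33.6 RPKM and 2775 bases, against 1140 for COS2, and its place in the family was not tested. COS2 and COS3 consist of repeated sequence and may hold the same reads. COS1, COS4, COS5 and COS7 are mostly repeated sequence, so that the median of the set is uncertain. COS9, COS10 and COS12, with little or no repeated sequence, had means of 14.3, 11.1 and 2.92 RPKM. Like COS111, they lay below the median gene. COS6 and COS8, with 37.7% and 16.6% repeated sequence, lay above it at 209 and 70.2 RPKM.

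The position along the chromosome was related to level. The 178 genes within 10 kb of a chromosome end had a median of 8.68 RPKM, the 298 genes between 10 and 30 kb had 14.8 RPKM, and the 6188 nuclear genes farther away had 37.0 RPKM.

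Genes without detectable expression were defined by at most 3 counts in each DMSO sample, which corresponds to 2.89e-05%, 1.59e-05% and 2.44e-05% of the counts of replicates 1, 2 and 3. They numbered 74 (1.11% of genes), of which 31 are in the reference annotation and 12 are mitochondrial. The libraries were made with an mRNA kit, and whether it captures mitochondrial transcripts was not tested. Low mitochondrial counts therefore need not mean silent genes. Of the nuclear genes among the 74, 50% lay within 30 kb of a chromosome end, against 7.14% of all nuclear genes. At 0 counts in all 3 samples were 27 genes, and 17 of these were at 0 in all 15 samples of the series. The asparaginase genes ASP3-1, ASP3-2, ASP3-3 and ASP3-4, which are identical copies, were among them, with 0 counts in every sample. Where counts are 0, expression below 3 counts per sample cannot be told from none.

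Among the 74, 7 genes had at least 10 counts in all 3 Curcumin samples, and 0 had so in all samples of CPTH2, scFv-58F or scFv-645. Of all 6692 genes, 6526 reached this in Curcumin, 6402 in CPTH2, 6425 in scFv-58F and 6422 in scFv-645. PAU19 had 0, 3 and 1 counts in DMSO, against 22, 45 and 105 counts in Curcumin. YMR242W-A had 1, 0 and 3 counts in DMSO, against 27, 37 and 42 counts in Curcumin. YFL015W-A, with 2, 3 and 3 counts in DMSO, had 50, 97 and 263 counts in Curcumin. These genes were chosen after their values were seen. They were picked for low counts in DMSO and at least 10 counts in Curcumin, so that the conditions could not overlap.

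The DMSO samples resembled each other closely. Over the 6422 genes with at least 10 counts in each, the correlation of log2 CPM across genes was 0.994 between replicates 1 and 2, 0.994 between 1 and 3 and 0.997 between 2 and 3. More than a 2-fold difference was found for 24, 20 and 6 genes in these pairs. No pair was a repeat of the same library, since the counts differed far more than by sampling, with a chi-square per degree of freedom of 24.5, 17.1 and 8.21. The median CV of a gene was 5.36%, against 27.4% in Curcumin, 10.3% in CPTH2, 5.27% in scFv-58F and 9.28% in scFv-645. It was 12.9% for genes with a mean of 10 to 100 counts, where counting error alone gives 14.9%, and 3.91% for genes above 10000 counts, where counting error gives 0.673%.

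**Figure D4:**
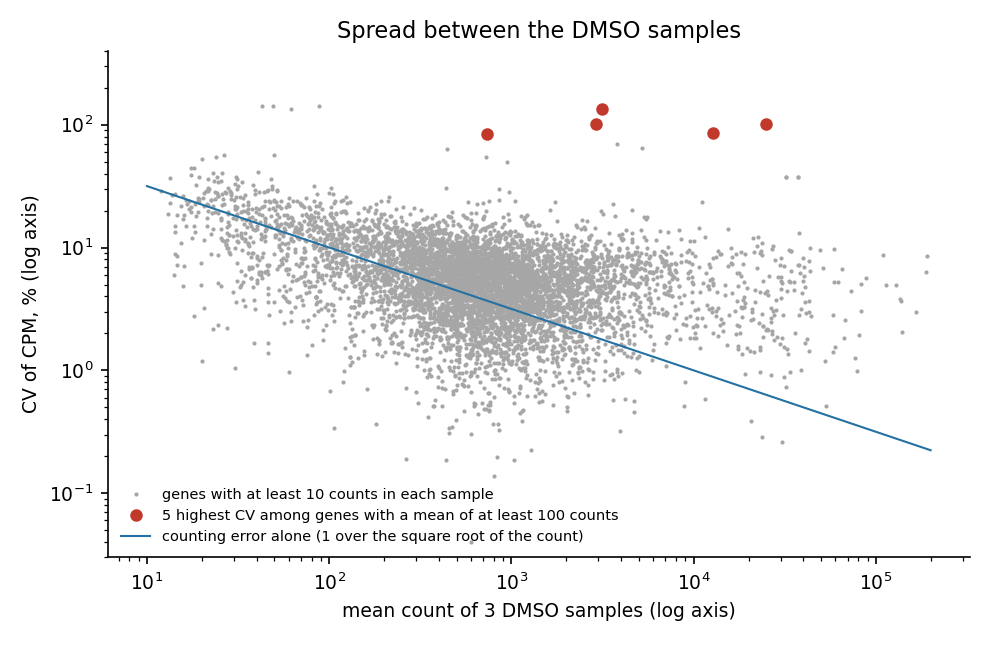
CV of CPM between the 3 DMSO samples (%, log axis) against the mean count (log axis), with each grey point a gene with at least 10 counts in each sample and the line the error from counting alone. The 5 red points, at a CV of 83.7% to 135%, are the genes of highest CV among those with a mean of at least 100 counts.

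Of the 5865 genes with a mean of at least 100 counts, VMS1, MAS1, TIM54, RKM2 and SCM3 varied the least, with CVs of 0.0404% to 0.190%, below the counting error for their counts. VMS1, a factor of protein quality control at mitochondria and ribosomes, had 451, 821 and 534 counts, and MAS1, a mitochondrial processing peptidase subunit, had 600, 1091 and 709. At the other end, 4 of the 5 most variable genes lie within the ribosomal DNA on chromosome XII and consist of repeated sequence. TAR1, an open reading frame antisense to the 25S ribosomal RNA gene, had 11093, 2244 and 2264 RPKM, YLR154W-A 10400, 2731 and 2795 RPKM, YLR154W-E 2394, 447 and 533 RPKM and YLR154W-F 4682, 421 and 433 RPKM. All were highest in replicate 1. The fifth, YGL088W on chromosome VII, had 298, 75.3 and 90.8 RPKM and was also highest there. For genes inside the ribosomal DNA, ribosomal RNA and the open reading frame cannot be told apart if strand was not used in counting.

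The DMSO samples were then set against each other condition, first by the share of counts of 6 lists. All 4 comparisons share the same 3 DMSO samples. With 3 samples against 3, the smallest p of the two-sided exact permutation test is 0.1, and over the 24 comparisons no adjusted p falls below 0.16. In bulk samples, a lower share of a list and a higher share of other genes cannot be told apart, nor can fewer cells and less RNA per cell. Ribosomal protein genes took 27.7% ± 0.797 of the counts in DMSO, against 8.97% ± 4.15 in Curcumin, 17.8% ± 2.27 in CPTH2, 26.1% ± 0.780 in scFv-58F and 25.5% ± 3.17 in scFv-645 (SD, n = 3 each). The DMSO samples were all above those of Curcumin and CPTH2 (exact permutation test, p = 0.1 for both) and overlapped those of the intrabody strains.

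Chaperone genes, whose products fold proteins and are induced by stress, took 0.772% ± 0.0293 in DMSO, below every sample of the other conditions. The other shares were 3.48% ± 0.898 in Curcumin, 1.99% ± 0.390 in CPTH2, 0.927% ± 0.0679 in scFv-58F and 1.08% ± 0.152 in scFv-645 (SD, n = 3 each, exact permutation test, p = 0.1 for each comparison). Glycolytic genes took 5.52% ± 0.174 in DMSO, against 3.55% ± 1.27 in Curcumin and 5.98% ± 0.613 in CPTH2, which overlapped DMSO. They took 6.82% ± 0.277 in scFv-58F and 6.53% ± 0.309 in scFv-645 (SD, n = 3 each), both above all DMSO samples. Lysine synthesis genes took 0.620% ± 0.0267 in DMSO, against 0.205% ± 0.0828 in Curcumin and 0.347% ± 0.0601 in CPTH2 (SD, n = 3 each), without overlap, while the intrabody strains overlapped DMSO.

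Translation factor genes took 3.10% ± 0.123 in DMSO, against 2.29% ± 0.276 in Curcumin, 2.94% ± 0.237 in CPTH2, 2.77% ± 0.0486 in scFv-58F and 3.23% ± 0.213 in scFv-645 (SD, n = 3 each). DMSO was above all Curcumin and scFv-58F samples (exact permutation test, p = 0.1 for both) and overlapped CPTH2 and scFv-645. As shares of summed RPKM, the difference from Curcumin changed sign, from 0.811 to -0.188 percentage points, and that from CPTH2 from 0.156 to -0.0623. Ethanol fermentation genes took 1.85% ± 0.0449 in DMSO, against 0.964% ± 0.457 in Curcumin, 1.91% ± 0.242 in CPTH2, 1.697% ± 0.0297 in scFv-58F and 1.65% ± 0.154 in scFv-645 (SD, n = 3 each). Here too DMSO was above all Curcumin and scFv-58F samples (exact permutation test, p = 0.1 for both) and overlapped the other groups.

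**Figure D5:**
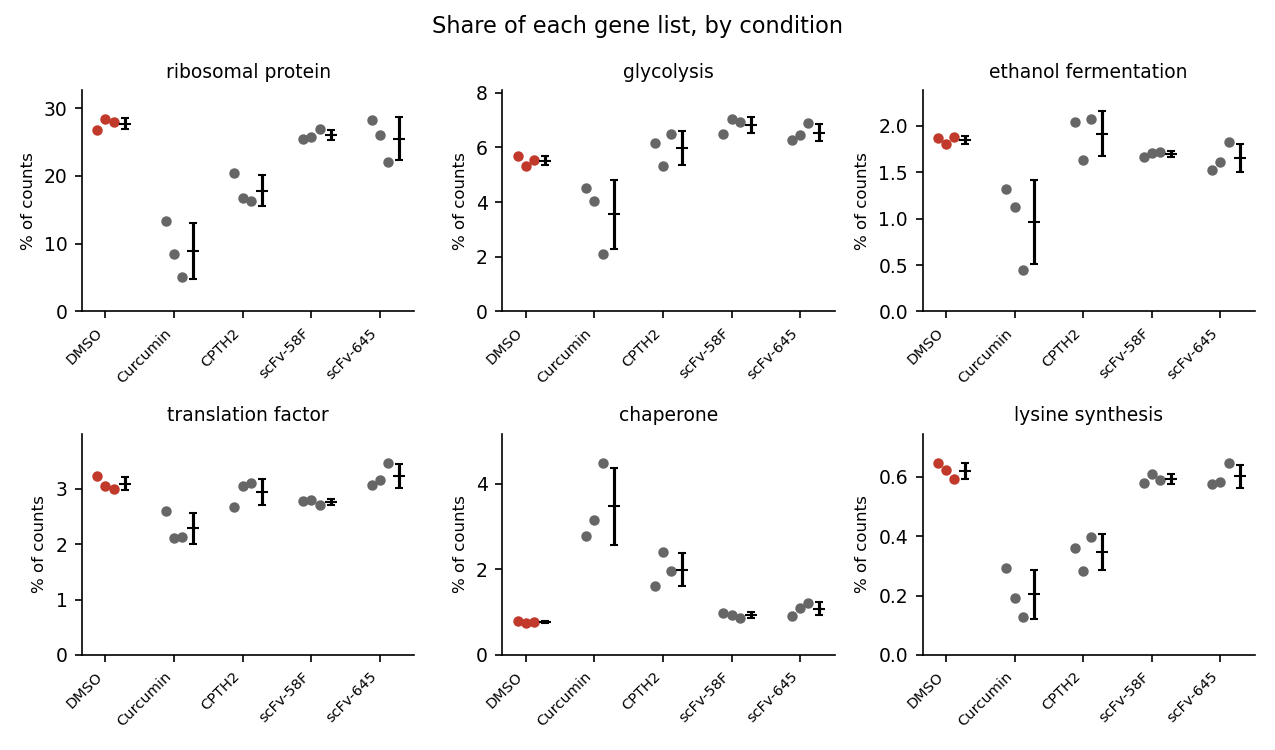
Share of all counts (%, axes from 0) taken by 6 lists of genes in each sample, DMSO in red and the 4 other conditions in grey, with the mean and SD of 3 samples beside the points. In the chaperone panel the DMSO samples lie below all other samples, and in the ribosomal protein panel they lie above those of Curcumin and CPTH2.

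Single genes were tested with edgeR's quasi-likelihood test over 6588 genes, and a gene was called when its Benjamini-Hochberg adjusted p was below 0.05 and it differed 1.5-fold or more. Against Curcumin, 1629 genes (24.7%) were higher and 1838 (27.9%) lower in DMSO. When samples were scaled by library size alone, the median log2 fold change over all genes fell to -0.38 and the split became 1052 higher and 2521 lower. Against CPTH2, 1115 (16.9%) were higher and 928 (14.1%) lower. The intrabody strains were closer to DMSO, with 358 genes (5.43%) higher and 130 (1.97%) lower against scFv-58F, and 178 (2.7%) higher and 87 (1.32%) lower against scFv-645. For scFv-58F, scaling by library size alone gave 465 higher and 90 lower.

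Of the 137 ribosomal protein genes, 118 were higher and 0 lower in DMSO than in Curcumin where 24.7% of all genes were higher. Their median log2 fold change was 1.99, against -0.03 over all genes tested. Against CPTH2, where 16.9% of all genes were higher, 99 were higher and 0 lower, with a median of 0.70, against 0.03 over all. DESeq2 also called 0 lower in both comparisons, and 0 were lower at an unadjusted p below 0.05. Against scFv-58F, 3 were higher and 1 lower, below the 5.43% and 1.97% of all genes. Against scFv-645, where 2.7% of all genes were higher and 1.32% lower, 0 passed in either direction, by edgeR or DESeq2. At an unadjusted p below 0.05, 55 were higher and 19 lower than in scFv-58F, and 36 higher and 5 lower than in scFv-645. Without the fold limit, 3231 of all 6588 genes had an adjusted p below 0.05 against scFv-58F and 1508 against scFv-645. Counts at an unadjusted p thus do not by themselves mark a list. Of the 20 chaperone genes, 15 were lower in DMSO than in Curcumin, 15 than in CPTH2, 6 than in scFv-58F and 12 than in scFv-645, against 27.9%, 14.1%, 1.97% and 1.32% of all genes, and 0 were higher in any comparison, by edgeR or DESeq2, although 3 were higher than in scFv-58F at an unadjusted p below 0.05. Of the 9 lysine synthesis genes, 8 were higher in DMSO than in Curcumin and 6 than in CPTH2, and 0 passed against either intrabody strain, by edgeR or DESeq2. At an unadjusted p below 0.05, 2 were higher and 3 lower than in scFv-58F, and 1 was higher than in scFv-645. Of the 11 histone genes, 9 were higher in DMSO than in Curcumin and 9 than in CPTH2, and 1 was lower than in scFv-645. Against scFv-58F 0 histone genes passed, by edgeR or DESeq2, and 9 were lower at an unadjusted p below 0.05. For lists of 9 and 11 genes, counts of 0 against the intrabody strains are near the shares of all genes. Of the 19 glycolytic genes, 6 were higher than in Curcumin, near the 24.7% of all genes. Against CPTH2, 2 were higher and 3 lower, near or below the 16.9% and 14.1% of all genes. In DMSO 4 were lower than in scFv-58F, where 1.97% of all genes were lower.

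Further lists were counted in the same way for Curcumin, where 24.7% of all genes were higher and 27.9% lower in DMSO, and for CPTH2, where 16.9% were higher and 14.1% lower. Of the 24 PAU genes, 23 were tested and 21 were lower in DMSO than in Curcumin, with a median log2 fold change of -3.50, and 4 were lower than in CPTH2, near the share of all genes. Most PAU genes share reads with their relatives, so that these counts are not independent. Of the 22 meiosis genes, 13 were lower and 1 higher in DMSO than in Curcumin. Against CPTH2, 1 was lower and 4 were higher, and the count of higher genes was near the share of all genes. Of the 18 glucose-repressed genes, 15 were lower in DMSO than in CPTH2, with a median of -1.05, and 1 was lower than in Curcumin, below the share of all genes. All 8 CCT genes were lower in DMSO than in Curcumin, with a median of -1.50. Of the 7 a-specific genes, 4 were higher and 1 was lower in DMSO than in CPTH2. Against Curcumin 2 were higher and 2 lower, about the shares of all genes, and 3 of the 4 alpha-specific genes were lower in DMSO.

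Genes that set DMSO apart from all 4 other conditions at once were few. Of the 6588 genes, 11 (0.167%) were higher in DMSO in every comparison and 13 (0.197%) were lower. Since the DMSO samples enter all 4 comparisons, a deviation of these samples appears in each. Among the 11 was YNR064C, an epoxide hydrolase, with 43.5, 29.98 and 24.3 CPM in DMSO and no more than 16.5 CPM in any other sample. Its log2 fold change ran from 1.796 ± 0.22 (SE) against CPTH2 to 2.17 ± 0.21 against scFv-58F (edgeR, adjusted p = 0.000152 and 2.03e-05). SSU1, a sulfite pump of the plasma membrane, had 62.7, 53.5 and 41.8 CPM in DMSO, against 31.4 ± 4.35 in Curcumin, 18.9 ± 1.81 in CPTH2, 22.4 ± 1.16 in scFv-58F and 20.3 ± 1.76 in scFv-645 (SD, n = 3 each). SEI1, the seipin of lipid droplets, had 23.5, 21.3 and 24.2 CPM in DMSO, above every other sample. DDI2, a cyanamide hydratase with the near-identical copy DDI3, had 64.4, 48.2 and 41.3 CPM in DMSO, and the highest Curcumin sample, at 49.4 CPM, overlapped them. DDI3 was also among the 11 and may hold the same reads. YGR107W, outside the reference annotation, had 1.35, 1.96 and 2.12 CPM in DMSO and overlapped scFv-645, whose highest sample had 1.43 CPM. YNR064C, SSU1 and DDI2 were highest in replicate 1.

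The number of genes higher in DMSO in every comparison was sensitive to single samples. It was 6 without DMSO replicate 2, 4 without DMSO replicate 3, 5 without Curcumin replicate 2 and 18 without Curcumin replicate 3, and a block for the replicate number left 7. YNR064C, SSU1 and SEI1 passed in all 15 of the fits that leave out a sample, while DDI2 passed in 10 and YGR107W in 9 of them. In a single edgeR model of all 5 groups, SEI1 lost its call against scFv-58F (adjusted p = 0.0535) and scFv-645 (adjusted p = 0.101).

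Of the 13 genes lower in DMSO, HSP26, HSP82, SSA1, HSP42 and HSP104 were members of the chaperone list. BTN2, a factor that sorts misfolded proteins, had 44.2, 59.8 and 44.4 CPM in DMSO, against 1083 ± 239.7 in Curcumin, 294 ± 138 in CPTH2, 223 ± 29.4 in scFv-58F and 432 ± 108 in scFv-645 (SD, n = 3 each). The log2 fold change of BTN2 was -4.09 ± 0.28 (SE) against Curcumin and -2.21 ± 0.12 against scFv-58F (edgeR, adjusted p = 0.000612 and 2.52e-06). HSP26, a small heat shock protein, had 28.2, 29.8 and 33.0 CPM in DMSO, against 535 ± 366 in Curcumin and 916 ± 305 in CPTH2, and 90.6 ± 6.41 in scFv-58F and 72.4 ± 14.5 in scFv-645 (SD, n = 3 each). HSP82, an Hsp90, had 178, 178 and 161 CPM in DMSO, and SSA1, an Hsp70, had 381, 337 and 342 CPM. In all 4 genes the DMSO samples were below every other sample. In the single edgeR model of all 5 groups, HSP26 lost its call against scFv-645 (adjusted p = 0.137) and SSA1 against scFv-58F (adjusted p = 0.0505). YAL004W overlaps SSA1 on the other strand, and its counts may be those of SSA1. The remaining 8 were YLR217W, ROQ1, YIG1, STI1, HSP42, HSP104, CPR6 and ACS1. YLR217W and CPR6 changed alike, with log2 fold changes of -1.67 and -1.50 against Curcumin and -0.80 and -0.66 against scFv-58F. Whether they share reads was not tested.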

How the data were processed

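RNA was extracted from yeast cultures, and stranded mRNA libraries were sequenced by the authors. Their processing notes name bcl2fastq 1.8.4, cutadapt, segemehl, NGSutils 0.5.9 and the sacCer3 genome. The deposited counts are reads per gene, counted by the authors. Whether strand was used is not given in the sources used here, and the values of opposite-strand genes led to the assumption that it was not. The deposited CPM values were scaled by the authors to all mapped reads and were not used. The deposited RPKM values were made by the authors from CPM and coding length. Of 15 samples, 3 were DMSO controls. Shares of counts, CPM of the reads on genes and Wilson 95% intervals were computed with Python 3.11.15 and scipy 1.17.1. Intervals and floors cover counting error only.

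Each other condition was compared with DMSO by edgeR 4.0.16 in R 4.3.3 (TMM, quasi-likelihood test, at least 10 counts in 3 of 15 samples, Benjamini-Hochberg adjustment). Genes were called at an adjusted p below 0.05 and a fold of at least 1.5. The scripts were tested on simulated data. Alternatives were DESeq2 1.42.0, other scalings, no filter, a joint model, a replicate block and leaving out samples. Members and lists were chosen with earlier results of these data known. Named were the genes of highest RPKM (20) and count (10), the highest, lowest and needed members of each list, the 5 of highest and lowest CV, and the 5 of largest smallest fold change in each direction. Sequences and annotation came from the R64 reference. Upstream windows were 500 bases long and repeats were defined by 51-base stretches. No 2-micron plasmid gene was analysed here.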

Additional observations from a re-analysis of the deposited data

How the results depend on the processing

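The counts of genes called against each condition were within 1.5 times of the values above under every alternative tried, except that a single model over all 5 groups called 230 genes against scFv-58F and 50 against scFv-645. Leaving out a sample in turn gave 2416 to 3945 genes against Curcumin, 1796 to 2282 against CPTH2, 464 to 559 against scFv-58F and 244 to 308 against scFv-645. The cause was not tested.

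Genes higher in DMSO than in all 4 conditions numbered 7 with the replicate block, 5 with library size only, 5 in the single model and 4 to 18 when a sample was left out. Genes lower in DMSO in all 4 numbered 5 in the single model and 10 to 15 when a sample was left out. The deviations of same-numbered samples correlated between -0.386 and 0.144. Such values cannot settle whether the replicate numbers pair the samples. With the block, 3323, 2050, 491 and 271 genes were called against Curcumin, CPTH2, scFv-58F and scFv-645. Of the fold changes of the 10 named genes, 454 kept their call over the alternatives, 26 lost it and 0 reversed.

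As shares of summed RPKM, ribosomal protein genes made up 40.02%, glycolysis 3.21%, fermentation 0.963%, translation factors 1.59%, histones 1.54%, chaperones 0.436%, a-specific genes 0.0990%, alpha-specific genes 0.00165%, meiosis genes 0.0109% and lysine synthesis 0.257%. The difference of DMSO from the other condition then reversed for translation factors, to -0.188 points for Curcumin and -0.0623 for CPTH2, and for lysine synthesis, to -0.00440 for scFv-645. With genes that overlap no other, the shares were 29.2%, 4.28%, 2.28%, 3.58%, 1.16%, 0.0478%, 0.00328%, 0.0302% and 0.764% for ribosomal protein, glycolysis, fermentation, translation factor, histone, a-specific, alpha-specific, meiosis and lysine synthesis genes. Genes without detectable expression numbered 150 below 10 counts, 27 at 0 counts, 31 in the reference only and 79 to 98 with a sample left out. The median CV was 3.98% to 5.05% with 2 samples.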
